A study of Homo sapiens with 24 samples.

Results

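The HOX cluster genes were followed across WT and ID3-KO human osteosarcoma cells treated with mocetinostat, a class I histone deacetylase inhibitor. Members were all genes whose name in the count files is HOX, a cluster letter from A to D and a number, which gave 40 of 57820 genes. Results are given for 39 of them, with 38 symbols because HOXC4 is listed under 2 gene identifiers, and all counts, sums and medians of HOX genes cover these 39. They were 10 genes of the HOXA cluster, HOXB 10, HOXC 10 and HOXD 9. Gene expression was measured by stranded total RNA-seq in 24 libraries, with 3 replicates in each of 8 groups.

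The U2OS groups were untreated WT, untreated ID3-KO, mocetinostat-treated WT and mocetinostat-treated ID3-KO cells. Treated U2OS cells were collected directly after 24 h of drug, a stage taken from the series text and the methods. The AID-DIvA groups were U2OS cells that carry an integrated AsiSI restriction enzyme, again WT and ID3-KO, either untreated or given mocetinostat for 24 h and then drug-free medium for another 24 h, and are called recovered cells here. U2OS is an osteosarcoma line. Stage and cell line coincide in this design and cannot be told apart, nor can any batch difference between the U2OS and AID-DIvA libraries. The methods used here give no mocetinostat dose for the RNA-seq and do not say whether the ID3-KO cells are 1 clone. The label of the treatment field contradicts the sample titles in all 12 AID-DIvA libraries, so every direction given for these cells rests on the titles.

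HOX genes encode homeodomain transcription factors that give body regions their identity along the head-to-tail axis. They lie in 4 clusters in the order of the body regions they pattern, with low paralog numbers at the anterior end and high numbers at the posterior end, and adult cells and tumour lines often keep the HOX pattern of their origin. Histone acetylation and Polycomb repression both act on these clusters, noncoding RNAs such as HOTAIR and HOTTIP are transcribed within them, and PBX and MEIS proteins bind DNA together with HOX proteins. ID3 lacks a DNA-binding region and holds back basic helix-loop-helix factors, which bind the E-box sequence CANNTG.

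On the GRCh37 assembly the reported HOXA genes span chromosome 7 from 27139721 to 27239725, HOXB chromosome 17 from 46605888 to 46806540, HOXC chromosome 12 from 54332535 to 54449814 and HOXD chromosome 2 from 176957619 to 177055688. All HOXA and HOXB genes lie on the minus strand, and all HOXC and HOXD genes on the plus strand. The genes are packed closely: 25 members overlap another gene on their own strand and 26 overlap one on the opposite strand. HOXA3, for example, spans HOXA4, HOXA5 and HOXA6, and HOXC11 overlaps HOTAIR. Reads in shared exons therefore cannot always be given to 1 member.

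Promoters are shown for 3 HOXD genes and for HOXB-AS1, the antisense RNA beside HOXB2. HOXD1, at the anterior end of its cluster, moved under mocetinostat in the direction opposite to HOXD10 and HOXD11, which lie toward the posterior end. The set of RefSeq (GRCh38.p14) promoters used here held entries for 20 of the 38 HOX symbols. It held none for HOXA5, HOXB2 to HOXB13, HOXC6 to HOXC13 or HOXD9. Each sequence is the 250 bases before the annotated start, 5′ to 3′ on the strand of the gene, and capitals mark CANNTG. HOXD1 lies at chr2:176188418-176188667 on the plus strand, HOXD10 at chr2:176116528-176116777 on the plus strand, HOXD11 at chr2:176107030-176107279 on the plus strand and HOXB-AS1 at chr17:48544101-48544350 on the plus strand.
HOXD1: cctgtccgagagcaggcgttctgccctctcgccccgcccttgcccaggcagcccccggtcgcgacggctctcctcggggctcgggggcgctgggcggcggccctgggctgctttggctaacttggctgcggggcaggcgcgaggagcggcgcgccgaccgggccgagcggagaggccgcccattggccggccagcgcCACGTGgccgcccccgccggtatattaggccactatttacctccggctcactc
HOXD10: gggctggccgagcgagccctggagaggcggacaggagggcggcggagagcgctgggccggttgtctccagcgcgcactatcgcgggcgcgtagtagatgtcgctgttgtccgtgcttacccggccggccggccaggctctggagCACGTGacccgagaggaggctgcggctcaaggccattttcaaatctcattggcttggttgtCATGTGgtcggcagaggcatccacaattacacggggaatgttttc
HOXD11: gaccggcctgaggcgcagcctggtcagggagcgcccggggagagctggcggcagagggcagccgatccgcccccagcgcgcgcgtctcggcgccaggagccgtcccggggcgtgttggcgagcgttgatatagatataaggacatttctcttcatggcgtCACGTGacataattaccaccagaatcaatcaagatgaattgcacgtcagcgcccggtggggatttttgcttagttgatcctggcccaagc
HOXB-AS1: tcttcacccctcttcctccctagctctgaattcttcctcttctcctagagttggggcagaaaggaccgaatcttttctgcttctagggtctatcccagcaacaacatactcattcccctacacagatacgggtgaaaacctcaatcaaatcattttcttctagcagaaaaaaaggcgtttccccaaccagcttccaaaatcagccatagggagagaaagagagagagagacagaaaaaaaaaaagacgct

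The 3 HOXD windows hold CACGTG, a form of CANNTG, and the HOXB-AS1 window holds no CANNTG. Of the 27 promoter entries of HOX genes, several of which belong to the same gene, 20 (74.1%) held CANNTG and 8 (29.6%) held CACGTG on either strand, against 61.8% and 6.3% of all 35116 promoter windows of that length. CCAAT was found in 66.7% of HOX entries against 32.0% of all, and TATAAA in 18.5% against 10.7%. The HOX entries had a median of 19 CpG against 11 over all windows. HOXC4 and HOXC5 share the same window, and most HOXB and HOXC genes are not among the entries. HOXD-AS1, listed by RefSeq as HAGLR, has 1 annotated start 96 bases before that of HOXD1 on the other strand, so that start lies within the window printed for HOXD1, and its 3 other annotated starts lie outside it. These matches describe the letters of the window and were not tested against expression.

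Total counts per library ran from 37878751 to 76906266, and HOX genes took 11143 to 24095 counts per library, or 0.0234% to 0.0362% of all counts. Values are in CPM, the count of a gene relative to all counts of its library, scaled by TMM factors over all libraries. ID3 transcripts, which the ID3-KO cells still held, were lower in ID3-KO than in WT cells in every untreated library, at 34.7 ± 3.61 against 50.4 ± 2.2 CPM in AID-DIvA and 30.6 ± 1.53 against 62.3 ± 15.9 CPM in U2OS (SD, n = 3). After treatment they were at 64.8 ± 3.23 against 119 ± 14.2 CPM in recovered AID-DIvA and 35.4 ± 5.12 against 81.8 ± 6.5 CPM in treated U2OS cells, so recovered ID3-KO cells lay above untreated WT cells of that line. Of the osteoblast-lineage markers COL1A1, SPARC, SPP1 and RUNX2 were above 10 CPM in every group, while SP7, IBSP and BGLAP stayed below 1 CPM, and so did the blood markers PTPRC, CD3E, HBA1 and HBB. ALPL and COL1A2, also lineage markers, were lower in untreated ID3-KO than in WT cells. Their log2 fold changes were -2.2 and -1.6 in AID-DIvA and -1.7 and -2.8 in U2OS cells. No other lineage marker tested, DLX5 among them, changed more than 2-fold there. Of the epithelial markers EPCAM, CDH1, KRT8 and KRT18, only CDH1 did, lower in ID3-KO AID-DIvA cells (-1.02). One library stood apart: untreated WT U2OS replicate 1 differed from its group by a chi-square of 91.1 and 103 per gene, against 2.79 to 27.3 in the other 22 pairs of replicates. Because whole cultures were sequenced, fewer cells of a kind and less RNA per cell cannot be told apart.

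Of the 39 genes reported, the 11 highest per length in untreated WT U2OS cells were central (paralog groups 4 to 8) or posterior (9 to 13), and the anterior gene HOXB3 (anterior meaning groups 1 to 3) ranked 12 at 2.97 ± 0.188 CPM per kb. Of all 39 genes 31 reached a mean of 1 CPM in some group, and HOXA2, HOXB1, HOXC5, HOXC12, HOXD4, HOXD12, HOXD13 and the short HOXC4 entry did not. On a per-length scale the highest level in untreated WT U2OS cells was that of HOXB9, a thoracic-region gene, at 21.0 ± 0.859 CPM per kb (SD, n = 3), and HOXB7 at 19.8 ± 4.87 did not differ from it beyond their spread. The spread of HOXB7 came largely from the library that stood apart, which held its highest value. HOXC10 at 12.3 ± 0.954, HOXC13 at 9.58 ± 1.23 and HOXC11 at 8.61 ± 1.28 CPM per kb, all posterior genes, followed, and HOXC13 and HOXC11 overlapped within 1 SD.

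The highest genes of the other clusters in the same cells were HOXA11 at 5.72 ± 0.703 and HOXD10 at 4.43 ± 0.407 CPM per kb. On the counts of the sense strand alone HOXA10 came before HOXA11, at 7.89 ± 1.25 and 7.12 ± 0.718 CPM per kb, and the pair overlapped within 1 SD. The anterior genes HOXA2, HOXD1, HOXD3 and HOXB2 lay between 0.104 and 0.262 CPM per kb in these cells, while HOXB2 was at 6.54 ± 0.23 in untreated ID3-KO U2OS cells. HOXB1 had 0 to 2 counts per library and HOXD4 0 to 2. Counting both strands together understated 6 of the 10 HOXA genes, whose counts on the sense strand alone were 1.1 to 3.88 times as many, highest for HOXA7, HOXA6 (2.28 times) and HOXA10 (2.17 times). For the other 4 the ratio was 0.813 (HOXA2) to 0.999.

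**Figure D1:**
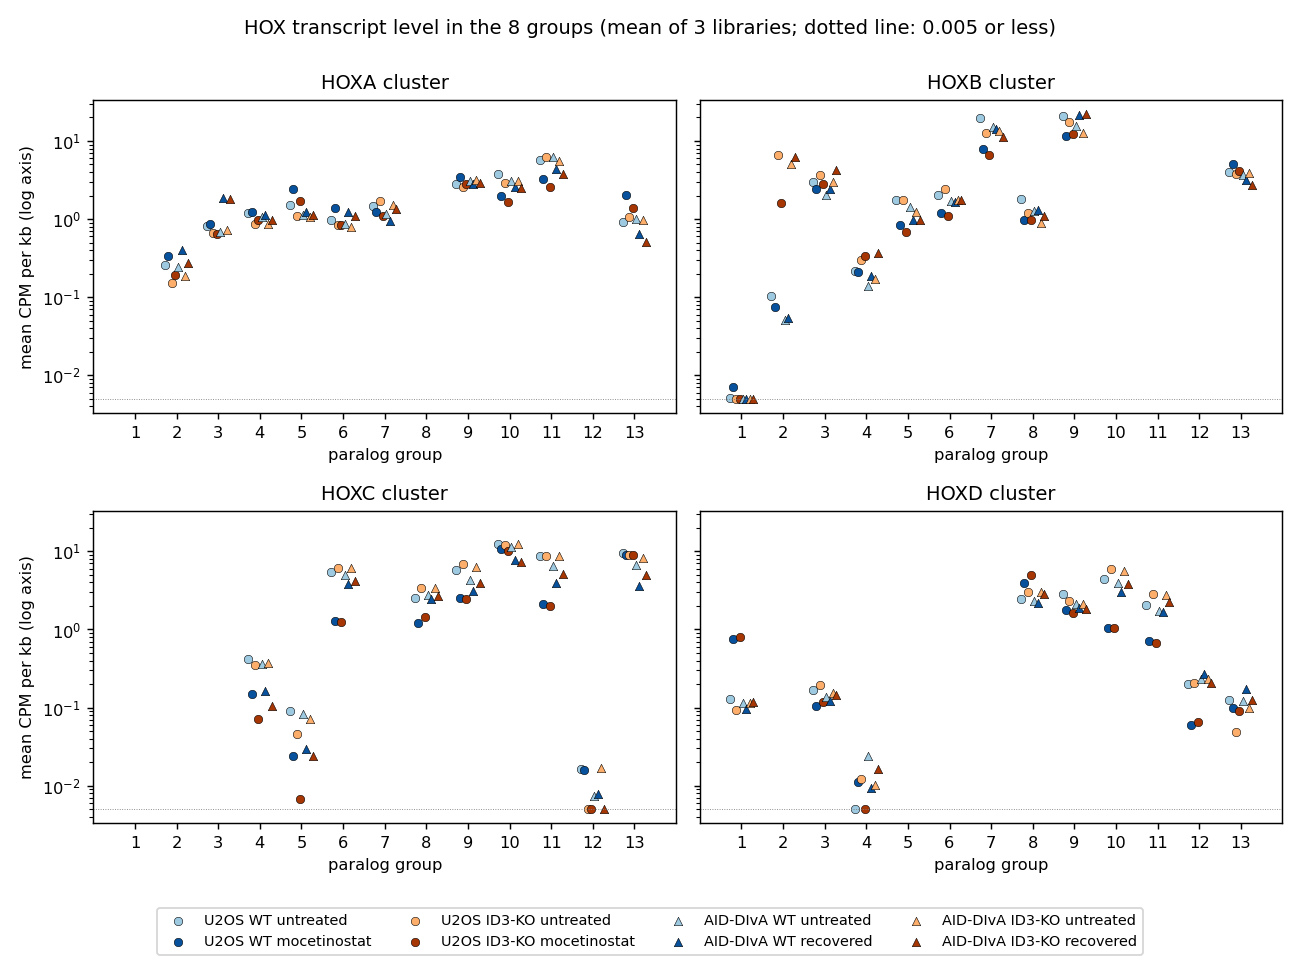
Mean transcript level of each HOX gene in CPM per kb on a log axis against its paralog group, 1 panel per cluster, with circles for U2OS and triangles for AID-DIvA groups and values of 0.005 or less drawn on the dotted line. HOXB2 sits between 0.05 and 0.104 CPM per kb in the 4 WT groups and above 1 in the 4 ID3-KO groups, and HOXC6, HOXC11, HOXD10 and HOXD11 of treated U2OS cells lie under the other groups.

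The summed HOX level was lower in treated than in untreated U2OS cells. It was 343 ± 23.6 CPM in untreated and 226 ± 4.25 CPM in treated WT cells, and 356 ± 5.93 and 220 ± 2.52 CPM in ID3-KO cells (SD, n = 3). The ranges of treated and untreated libraries did not overlap in either genotype. In recovered AID-DIvA cells the sums were 259 ± 3.94 against 284 ± 2.81 CPM in WT, with separate ranges, and 301 ± 17.9 against 328 ± 7.71 CPM in ID3-KO, where the ranges of 290 to 321 and 319 to 334 overlapped.

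By cluster, HOXC sums in U2OS cells were 119 ± 10.2 CPM untreated and 66.8 ± 1.84 treated in WT, and 124 ± 2.1 and 65.7 ± 1.61 in ID3-KO. HOXB sums were 140 ± 8.15 and 89.1 ± 2.46 in WT, and 146 ± 3.16 and 93.2 ± 1.82 in ID3-KO. HOXD sums were 31.8 ± 1.87 and 21.5 ± 0.78 in WT, and 37.9 ± 0.0988 and 24 ± 0.384 in ID3-KO. HOXA sums were 52.2 ± 4.25 untreated and 48.6 ± 1.06 CPM treated in WT, where the ranges of 49.4 to 57.1 and 47.4 to 49.4 met at the precision given, and 48.5 ± 0.859 and 37 ± 1.86 CPM in ID3-KO.

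Direct mocetinostat treatment lowered several HOXC and HOXD genes and HOXB5 in U2OS cells of both genotypes and raised HOXD1, the most anterior gene of its cluster. A call needed both an adjusted p below 0.05 and more than a 2-fold change. Of 33 HOX genes tested in ID3-KO cells 13 were called, 1 higher and 12 lower, where 20.3% of all 21176 genes tested were called, 14.6% higher and 5.77% lower. Of 34 tested in WT cells 12 were called, 2 higher and 10 lower, where 18.6% of all genes were called, 13.6% higher and 5.06% lower. Lower calls thus made up 36.4% and 29.4% of the HOX genes tested. At the adjusted p alone 25 HOX genes passed in ID3-KO cells, 5 higher and 20 lower, where 69.9% of all genes passed (35.8% higher and 34% lower), and 23 in WT cells, 6 higher and 17 lower, where 48.9% passed (26% higher and 22.9% lower).

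The calls were largely shared between the genotypes. HOXD1 was higher in both, and HOXB5, HOXC4, HOXC6, HOXC8, HOXC9, HOXC11, HOXD10, HOXD11 and HOXD12 were lower in both. HOXA11, HOXB2 and HOXB6 passed as lower in ID3-KO cells and not in WT, while HOXA13 passed as higher and HOXB7 as lower in WT cells and not in ID3-KO. The median log2 fold change of the HOX genes tested was -0.52 in ID3-KO and -0.58 in WT, beside 0 and 0.01 over all genes. Among the clusters the HOXC median was -1.48 and -1.16, the HOXB median -0.51 and -0.74, the HOXD median -0.72 and -0.68, and the HOXA median 0.06 and 0.20. By position the anterior genes had medians of -0.21 and -0.09, the central genes -0.65 and -0.74, and the posterior genes -0.67 and -0.8.

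**Figure D2:**
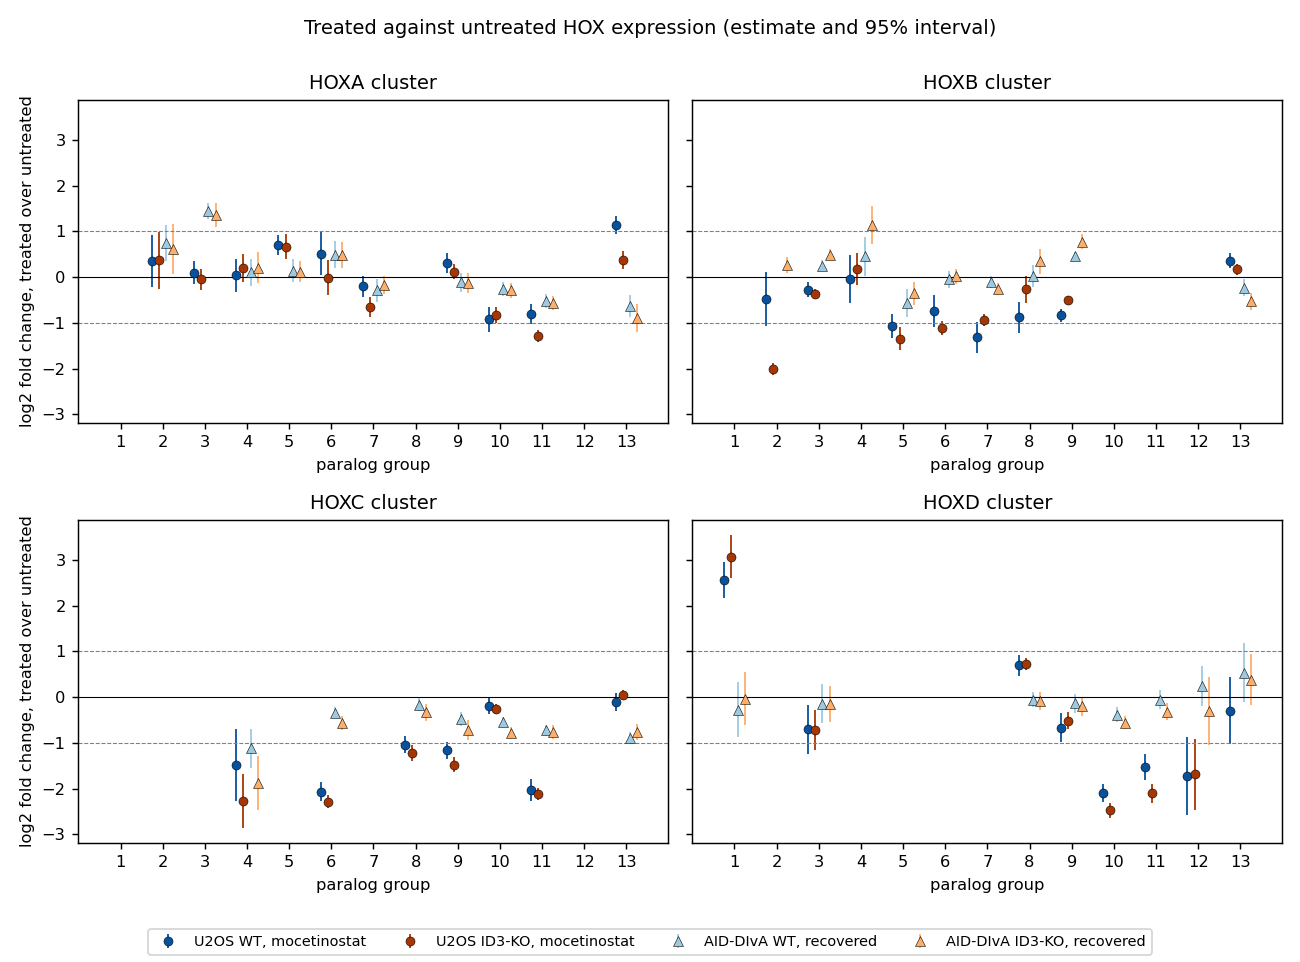
Log2 fold change of treated over untreated cells for every tested HOX gene against its paralog group, 1 panel per cluster, with bars for the 95% interval and dashed lines at a fold of 2. HOXC6, HOXC11, HOXD10 and HOXD11 of U2OS cells lie below the lower dashed line in both genotypes, HOXD1 lies above the upper line, and in recovered AID-DIvA cells HOXA3 lies above it in both genotypes and HOXB4 in ID3-KO.

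HOXC6 and HOXC11, a central and a posterior gene of the HOXC cluster, changed most within it among genes above 1 CPM after treatment. HOXC6 had 19.9, 19.4 and 18.3 CPM in untreated WT U2OS cells and 4.51, 5.06 and 4.13 CPM after treatment, and 22.3, 20.9 and 21.7 against 4.22, 4.22 and 4.78 CPM in ID3-KO cells. Every treated library lay below every untreated one. The log2 fold change was -2.07 ± 0.10 in WT (SE, adjusted p = 4.87e-06) and -2.28 ± 0.07 in ID3-KO (adjusted p = 1.03e-17) from the quasi-likelihood test of edgeR, adjusted by Benjamini and Hochberg's method over all genes tested, as were all adjusted p-values here.

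HOXC11, which patterns the lumbosacral region and hindlimb, had 32.9, 25.4 and 26.1 CPM in untreated and 7.06, 6.61 and 6.86 CPM in treated WT U2OS cells. In ID3-KO cells the values were 28.4, 28.3 and 27.5 against 5.83, 6.76 and 6.75 CPM. The treated libraries of both genotypes lay close together and far under the untreated ones, at log2 fold changes of -2.03 ± 0.12 (adjusted p = 1.1e-05) and -2.11 ± 0.07 (adjusted p = 9.14e-18). HOXC8 and HOXC9, which the annotated HOXC6 gene spans, had smaller changes. HOXC9 went from 10.4, 9.16 and 9.46 to 4.22, 4.23 and 4.44 CPM in WT, and from 11.2, 11.1 and 11.9 to 3.93, 4.49 and 3.83 CPM in ID3-KO. HOXC8 went from 8.79, 8.21 and 8.4 to 4.09, 3.97 and 4.24 CPM in WT, and from 11.5, 10.7 and 11.8 to 5.19, 4.14 and 5.1 CPM in ID3-KO. These correspond to log2 fold changes of -1.16 and -1.48 for HOXC9 and of -1.03 and -1.22 for HOXC8, all called.

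HOXC10, which lies between HOXC9 and HOXC11, and HOXC13, the most posterior HOXC gene, were not called. HOXC10, the highest HOXC gene per length, was at 28.6 ± 2.22 CPM untreated and 24.9 ± 1.81 treated in WT, and at 28.3 ± 1.15 and 23.5 ± 1.1 in ID3-KO (SD, n = 3), where its log2 fold change of -0.26 passed the adjusted p (0.000263) but not the fold. HOXC13 was at 23.3 ± 3.0 and 21.6 ± 0.254 CPM in WT and at 21.7 ± 0.917 and 22.2 ± 0.075 CPM in ID3-KO, and neither comparison passed. HOXC4, a low gene of the anterior end, had 0.635, 1.45 and 1.38 CPM in untreated and 0.55, 0.436 and 0.25 CPM in treated WT cells, and 0.911, 0.843 and 1.11 against 0.101, 0.275 and 0.212 CPM in ID3-KO. It rested on 6 to 105 counts per library, and its WT call was lost when any of 3 single libraries was left out (largest adjusted p = 0.0659).

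HOXD10 and HOXD11, posterior genes of limb and lumbosacral patterning whose promoters are printed above, fell side by side. HOXD10 had 11.1, 11.5 and 13.2 CPM in untreated and 2.72, 2.78 and 2.8 CPM in treated WT cells, and 15.3, 15.8 and 16.2 against 2.5, 3.02 and 2.98 CPM in ID3-KO cells. HOXD11 had 4.64, 4.74 and 5.04 against 1.5, 1.98 and 1.54 CPM in WT, and 6.79, 6.85 and 6.56 against 1.58, 1.58 and 1.53 CPM in ID3-KO. The untreated level of both genes was higher in ID3-KO than in WT, and the treated libraries reached a similar level in both genotypes. Log2 fold changes were -2.10 ± 0.10 in WT and -2.47 ± 0.08 in ID3-KO for HOXD10 (adjusted p = 4.56e-06 and 3.59e-17), and -1.52 ± 0.14 and -2.10 ± 0.11 for HOXD11 (adjusted p = 9.95e-05 and 4e-14). The annotated genes overlap on the same strand. HOXD12, at most 0.468 CPM in any U2OS library, was also called lower in both genotypes, on 5 to 34 counts per library, and its WT call was lost without treated replicate 1 (adjusted p = 0.0506).

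HOXD1 stood at the anterior end of the same cluster and rose. Its libraries had 0.232, 0.303 and 0.246 CPM in untreated and 1.53, 1.55 and 1.55 CPM in treated WT U2OS cells, and 0.136, 0.219 and 0.214 against 1.77, 1.43 and 1.65 CPM in ID3-KO. Counts ran from 7 to 22 per untreated library and from 78 to 118 per treated one. The log2 fold change was 2.56 ± 0.20 in WT (adjusted p = 3.62e-05) and 3.07 ± 0.24 in ID3-KO (adjusted p = 1.15e-10).

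HOXD-AS1, the antisense RNA that starts beside HOXD1, was higher as well. It had 4.63, 4.59 and 4.62 CPM in untreated and 32.0, 31.8 and 31.8 CPM in treated WT cells, and 5.84, 5.46 and 5.15 against 38.0, 35.3 and 37.4 CPM in ID3-KO, a log2 fold change of 2.80 ± 0.07 and 2.76 ± 0.07. On its own strand HOXD-AS1 gave nearly the same values, with treated means of 32.0 and 37.1 CPM. HOXD8, a central gene of this cluster, passed the adjusted p with smaller changes, from 7.34, 5.55 and 6.2 to 9.93, 10.3 and 10.5 CPM in WT and from 8.07, 7.88 and 7.91 to 13.5, 13 and 12.9 CPM in ID3-KO.

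At the posterior end of the HOXA cluster HOXA11 and HOXA13, genes of the forearm segment and of the hand and genital region, moved apart. HOXA11 had 14.7, 13.3 and 11.5 CPM untreated and 7.76, 7.2 and 7.66 CPM treated in WT, and 14.3, 14.2 and 14.7 against 6.1, 5.54 and 5.99 CPM in ID3-KO. HOXA13 had 4.55, 4.1 and 4.34 against 9.56, 8.75 and 10 CPM in WT, and 5.72, 4.92 and 4.39 against 7.08, 6.38 and 5.96 CPM in ID3-KO. HOXA11 passed the fold in ID3-KO (-1.29 ± 0.07, adjusted p = 2.42e-13) and not in WT (-0.80 ± 0.11, adjusted p = 0.000745), and HOXA13 passed it in WT (1.14 ± 0.10, adjusted p = 6.75e-05) and not in ID3-KO (0.38 ± 0.10, adjusted p = 0.00208).

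Of the central HOXB genes HOXB5, HOXB6 and HOXB7 fell in treated U2OS cells of both genotypes at the adjusted p. HOXB8 passed it in WT only, at 3.75 CPM untreated and 2.04 CPM treated, and HOXB4 in neither genotype, at 0.821 and 0.791 CPM in WT and 1.12 and 1.26 CPM in ID3-KO. HOXB5 went from 3.9, 3.64 and 3.32 to 1.8, 1.61 and 1.72 CPM in WT and from 3.49, 3.63 and 3.53 to 1.26, 1.45 and 1.47 CPM in ID3-KO. HOXB6 went from 9.66, 9.78 and 9.95 to 4.32, 4.86 and 4.42 CPM in ID3-KO, and from 6.25, 9.79 and 8.72 to 4.69, 5.59 and 4.5 CPM in WT, where it passed the adjusted p (0.01) but not the fold. HOXB7 had 38.7, 25.3 and 26.4 CPM in untreated and 13.1, 11.4 and 11.6 CPM in treated WT cells, and 19.6, 18.5 and 19.7 against 9.38, 10.4 and 10.3 CPM in ID3-KO. The highest untreated WT value of HOXB7 came from the library that stood apart, which was also lowest for HOXB6. Without that library the 12 WT calls were the same genes. HOXB9, the highest HOXB gene, passed the adjusted p but not the fold, at 56.8 ± 2.32 and 31.7 ± 1.03 CPM in WT and 46.8 ± 2.24 and 32.8 ± 0.42 CPM in ID3-KO (SD, n = 3).

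**Figure D3:**
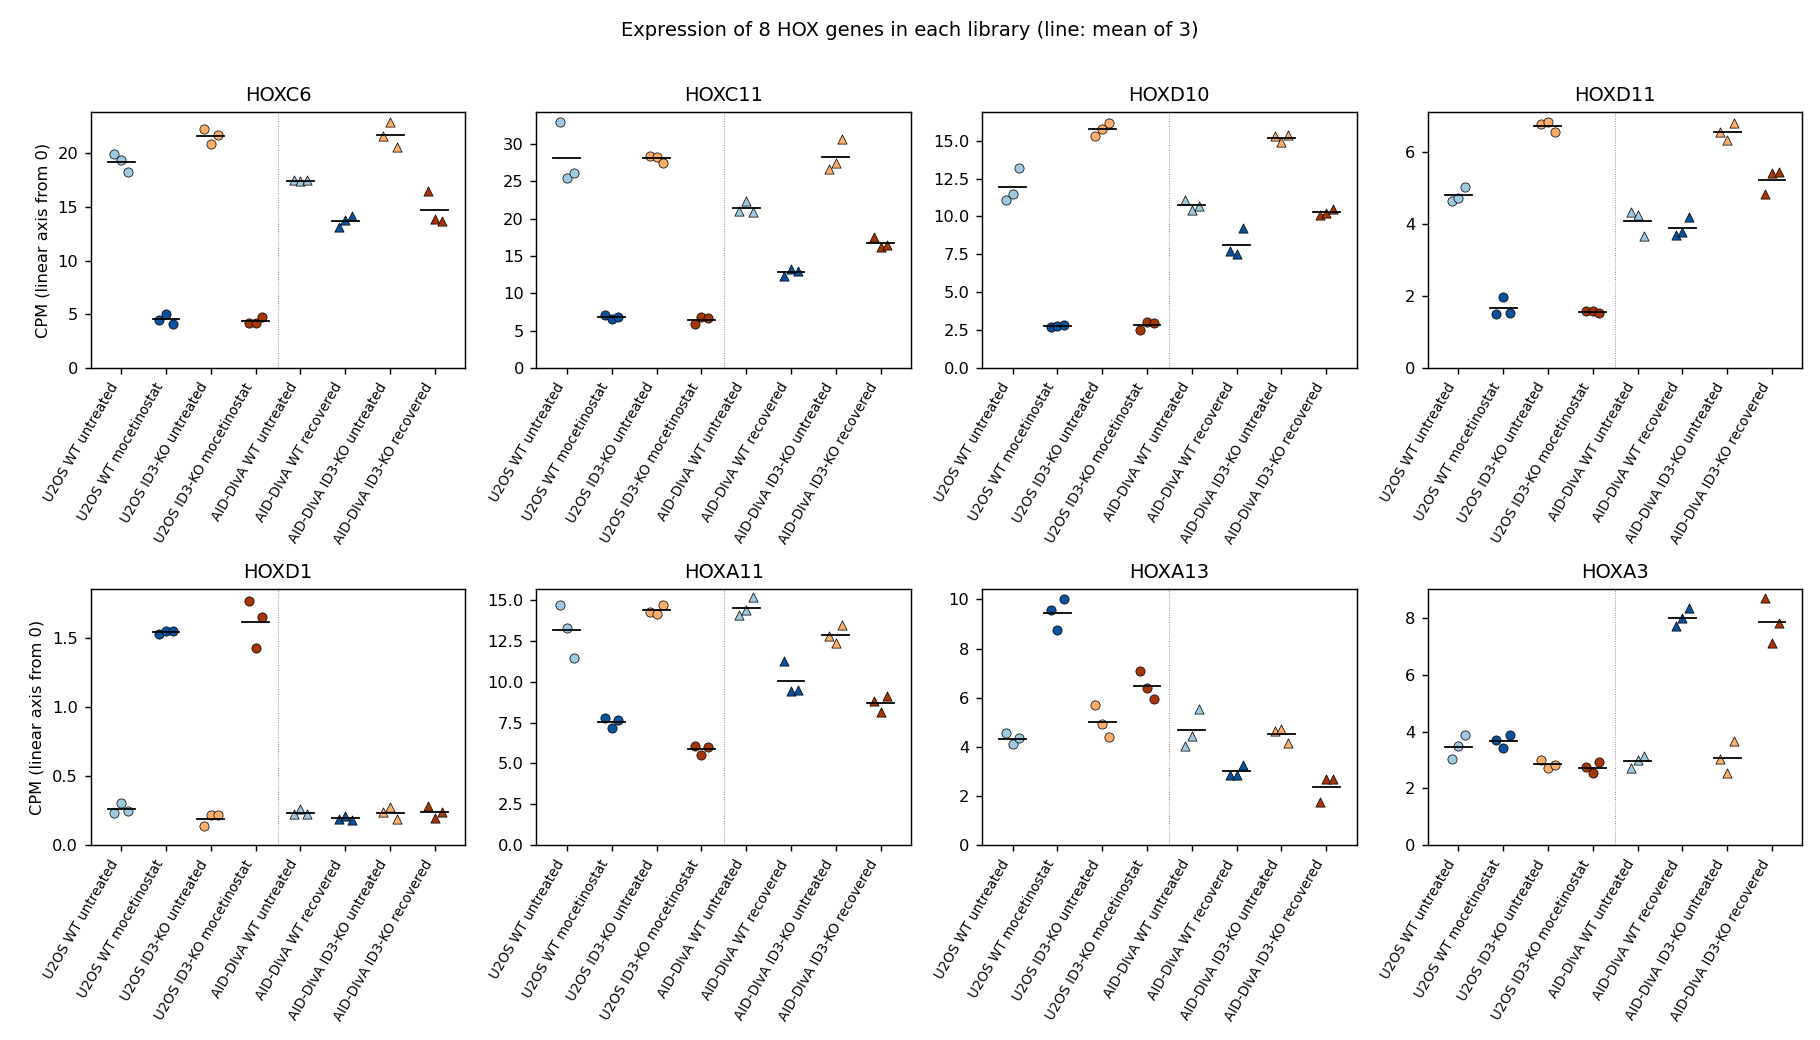
CPM of 8 HOX genes in each of the 24 libraries on linear axes from 0, with circles for U2OS, triangles for AID-DIvA and a line at the mean of 3. HOXC6, HOXC11, HOXD10 and HOXD11 are low and HOXD1 high in all 6 treated U2OS libraries, and HOXA3 is high in the 6 recovered AID-DIvA libraries, at 7.13 to 8.72 CPM.

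After recovery fewer HOX genes passed. Of 34 tested in ID3-KO AID-DIvA cells 3 were called, HOXA3 and HOXB4 higher and HOXC4 lower, where 7.46% of all 20362 genes were called, 4.9% higher and 2.56% lower. Of 33 tested in WT cells 2 were called, HOXA3 higher and HOXC4 lower, where 7.38% of all genes were called, 4.86% higher and 2.52% lower. These shares, 8.82% and 6.06% of the HOX genes tested, are near those of all genes. The median log2 fold change of the HOX genes tested was -0.19 in ID3-KO and -0.14 in WT, beside -0.02 and 0 over all genes.

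HOXA3, a gene of pharyngeal organ patterning, had 2.73, 3.01 and 3.16 CPM in untreated and 7.72, 8.01 and 8.37 CPM in recovered WT cells. In ID3-KO cells it had 3.02, 2.53 and 3.68 against 8.72, 7.13 and 7.83 CPM. The recovered libraries stood above all untreated ones, with log2 fold changes of 1.44 ± 0.09 (adjusted p = 3.39e-08) and 1.36 ± 0.14 (adjusted p = 4.9e-05). In U2OS cells HOXA3 lay between 2.55 and 3.9 CPM in all 12 libraries. HOXC4 had 1.19, 0.79 and 0.949 against 0.432, 0.437 and 0.46 CPM in WT, and 0.893, 0.834 and 1.3 against 0.399, 0.181 and 0.282 CPM in ID3-KO. Its recovered libraries held 12 to 25 counts each, and its WT call was lost without untreated replicate 1, where the log2 fold change was -0.96 instead of -1.11. HOXB4, a cervical-region gene, had 0.429, 0.67 and 0.812 against 1.31, 1.48 and 1.39 CPM in ID3-KO, at 1.15 ± 0.21 (adjusted p = 0.00213), and 0.586, 0.464 and 0.506 against 0.846, 0.575 and 0.68 CPM in WT, where it did not pass. Its ranges were separate in ID3-KO and overlapped in WT, and its ID3-KO call was lost without untreated replicate 1, where the log2 fold change was 0.94.

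Below the fold of 2, several HOXC and posterior genes were lower after recovery. At the adjusted p alone 20 HOX genes passed in ID3-KO cells, 6 higher and 14 lower, and 16 in WT cells, 5 higher and 11 lower, where 40.1% and 46.9% of all genes passed (20.2% and 23.9% higher, 19.9% and 23% lower). All 7 tested HOXC genes were among the lower ones in ID3-KO and 6 of 7 in WT. HOXC6, HOXC11 and HOXD10, which fell in treated U2OS cells, were among the lower genes in both genotypes. HOXC10 had 27.0, 25.9 and 27.1 CPM in untreated and 17.4, 18.5 and 18.4 CPM in recovered WT cells, and 28.6, 30.1 and 28.4 against 17.7, 16.5 and 16.3 CPM in ID3-KO. HOXC13, a gene of hair and nail, had 16.1, 16.9 and 16.5 against 8.55, 8.93 and 9.03 CPM in WT, and 20.8, 20.1 and 19.5 against 13.8, 11.5 and 10.6 CPM in ID3-KO. Both genes had separate ranges in both genotypes, at log2 fold changes of -0.55 and -0.79 for HOXC10 and of -0.89 and -0.76 for HOXC13, whereas these were the HOXC genes with the smallest differences in treated U2OS cells.

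HOXB9 was higher after recovery and lower after direct treatment. It had 42.6, 42.1 and 41.6 CPM in untreated and 57.5, 58.6 and 57.3 CPM in recovered WT cells, and 33.6, 34.6 and 34.9 against 67.8, 55.4 and 53.6 CPM in ID3-KO, at log2 fold changes of 0.47 ± 0.05 (adjusted p = 2.03e-06) and 0.77 ± 0.08 (adjusted p = 7.47e-05). HOXB3 had 15.5, 15.1 and 15.5 against 17.0, 19.0 and 18.5 CPM in WT, and 22.1, 22.2 and 22.7 against 32.9, 30.5 and 31.0 CPM in ID3-KO. Both passed the adjusted p but not the fold, as higher in both genotypes. HOXB13, the most posterior HOXB gene, was lower after recovery in ID3-KO cells. It had 12, 13.6 and 12.5 against 9.13, 12 and 11.3 CPM in WT, where it did not pass, and 13.1, 13.5 and 14 against 10.7, 8.41 and 9.15 CPM in ID3-KO, where it passed the adjusted p (0.00126) but not the fold. In U2OS cells its treated libraries lay above the untreated ones, at 17.5, 16.4 and 18.5 against 14.5, 12.9 and 13.7 CPM in WT and at 14.8, 13.9 and 14.6 against 13, 12.8 and 13 CPM in ID3-KO (log2 fold changes of 0.36 and 0.17).

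The response of most HOX genes differed between recovered AID-DIvA cells and directly treated U2OS cells. The test of that difference passed for 25 of 34 HOX genes in ID3-KO cells, where 52.5% of all genes passed (24.8% higher and 27.7% lower), and for 21 of 35 in WT cells, where 42.2% passed (20.5% and 21.7%). In both genotypes 13 genes had the more positive change in recovered cells, among them HOXC6, HOXC11, HOXD10, HOXD11, HOXB9 and HOXA3. Another 7 had the more negative change in both, namely HOXA5, HOXA13, HOXB13, HOXC10, HOXC13, HOXD1 and HOXD8. For HOXD10, which was at 10.7 ± 0.303 and 8.15 ± 0.927 CPM in untreated and recovered WT AID-DIvA cells, the difference of log2 fold changes was 1.70 ± 0.14 (adjusted p = 5.29e-07) in WT and 1.90 ± 0.11 (adjusted p = 1.01e-10) in ID3-KO. For HOXD1, at 0.184 to 0.285 CPM in every AID-DIvA library, it was -2.84 ± 0.32 and -3.11 ± 0.39. Whether stage, cell line or a batch underlies these differences cannot be told apart.

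**Figure D4:**
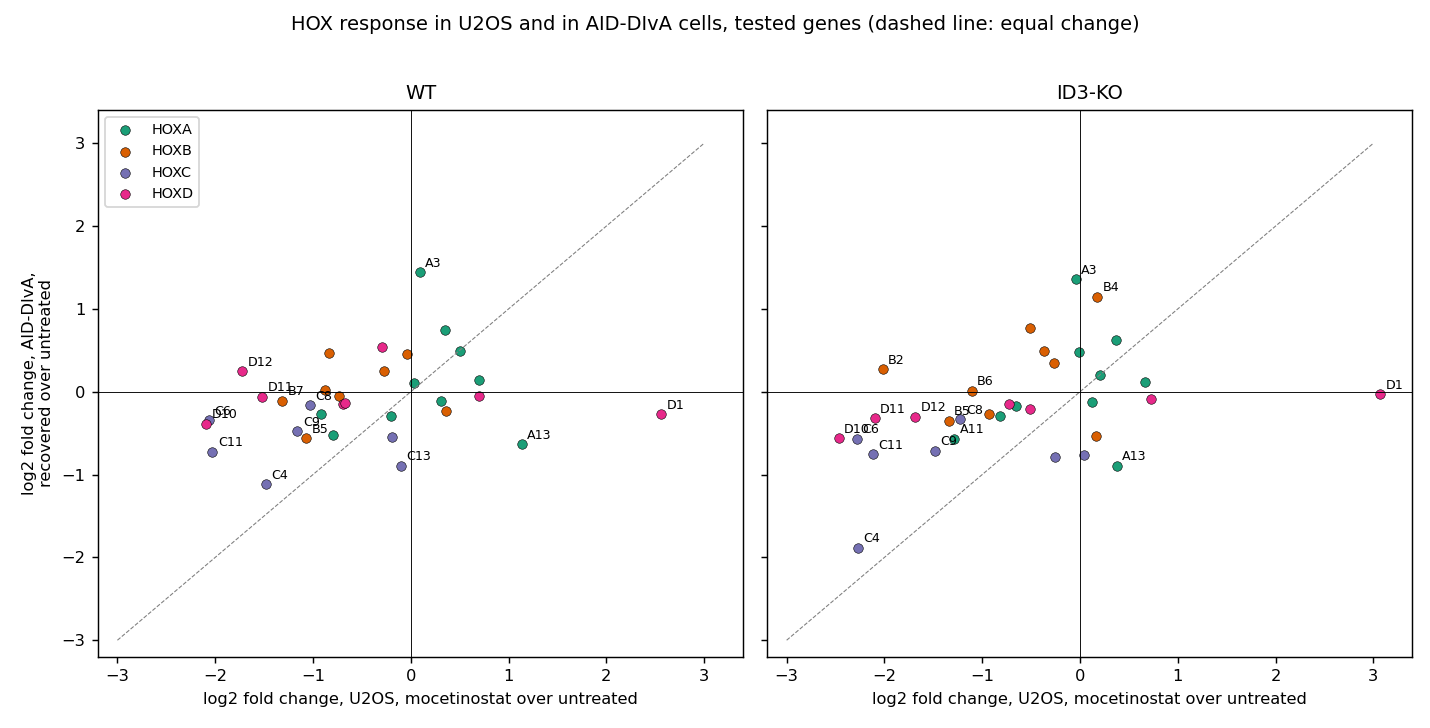
Log2 fold change of each tested HOX gene in recovered AID-DIvA cells (vertical) against that in directly treated U2OS cells (horizontal), left for WT and right for ID3-KO, coloured by cluster, with a dashed line of equal change and gene labels without the letters HOX. Genes such as D10, C6 and C11 lie left of the dashed line and under 0 on the vertical axis, and D1 lies far right with values near 0.

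In untreated cells 1 HOX gene was called between the genotypes, at an adjusted p below 0.05 and more than a 2-fold change. HOXB2, a hindbrain gene next to HOXB1 on chromosome 17 (46618256 to 46623441, minus strand), had 0.182, 0.172 and 0.174 CPM in WT and 17.1, 17.3 and 18.8 CPM in ID3-KO AID-DIvA cells. In U2OS it had 0.449, 0.331 and 0.303 CPM in WT and 22.6, 21.9 and 23.5 CPM in ID3-KO. Counts ran from 9 to 29 per untreated WT library and from 997 to 1317 per untreated ID3-KO library. The log2 fold change was 6.62 ± 0.13 in AID-DIvA (SE, adjusted p = 5.78e-15, 98.3-fold) and 5.95 ± 0.14 in U2OS (adjusted p = 2.37e-06, 61.9-fold). HOXB2 was the single HOX gene called of 34 tested in each line, where 4.58% (2.27% higher and 2.3% lower) and 4.26% (1.42% and 2.84%) of all genes were called.

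The antisense gene HOXB-AS1, which overlaps HOXB2 and HOXB3, had the same pattern. Counted on its own strand it had 0.0202, 0.0172 and 0 CPM in untreated WT and 2.9, 3.2 and 3.3 CPM in untreated ID3-KO AID-DIvA cells, and 0.0619, 0.0275 and 0.0379 against 3.34, 3.2 and 3.69 CPM in U2OS. The WT libraries held 0 to 5 counts on this strand in all 4 groups, and counts of both strands together passed as higher in ID3-KO in each line (adjusted p = 8.1e-08 and 0.000202). HOXB1, on one side of HOXB2, was at 0 to 2 counts in every library. HOXB3, on the other side, was at 22.3 ± 0.358 against 15.3 ± 0.223 CPM in AID-DIvA (log2 fold change 0.52 ± 0.06, adjusted p = 1.81e-06), and at 27.4 ± 2.04 against 22.1 ± 1.4 CPM in U2OS, where it did not pass. HOXB4 was not called in either line.

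**Figure D5:**
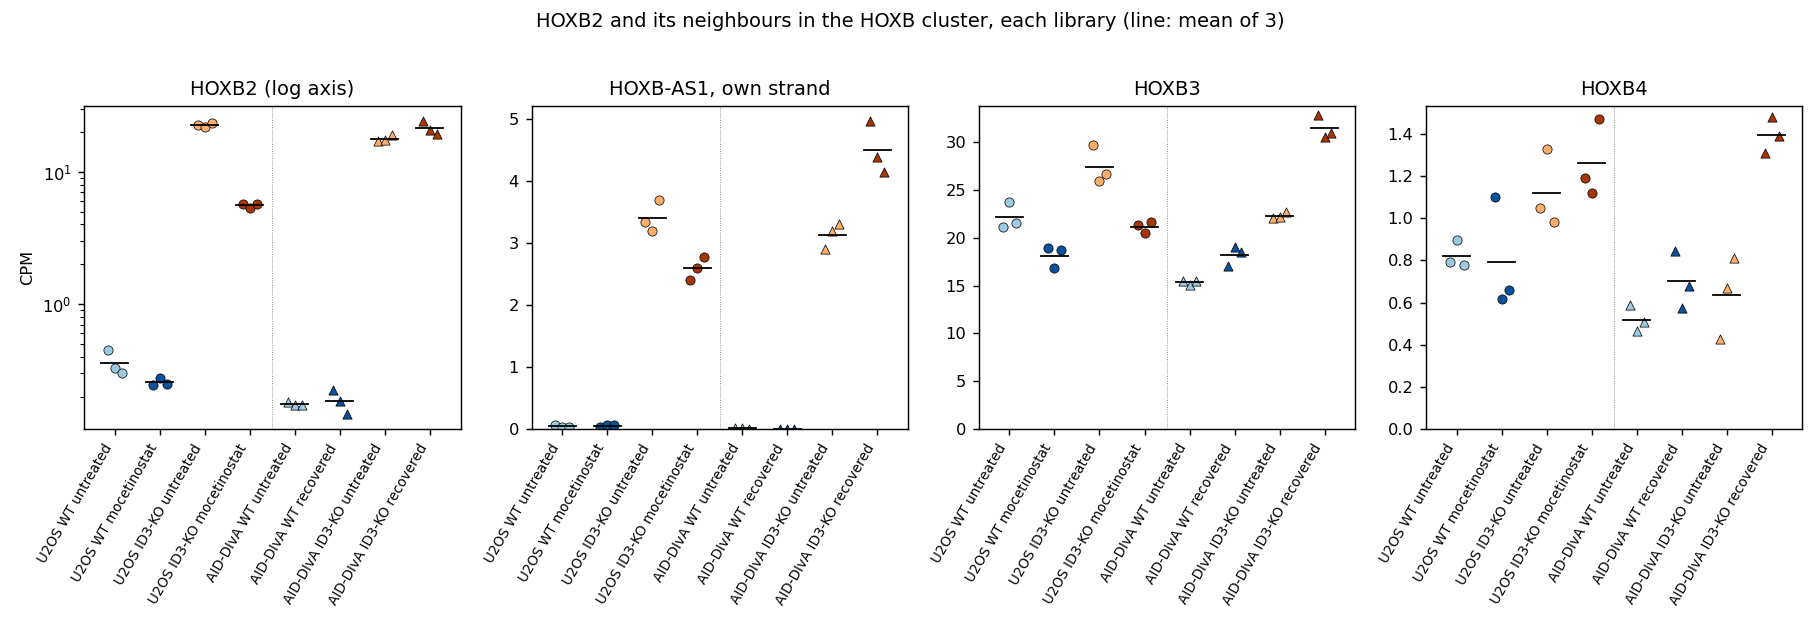
CPM in each library of HOXB2 on a log axis and of HOXB-AS1 counted on its own strand, HOXB3 and HOXB4 on linear axes from 0, with circles for U2OS, triangles for AID-DIvA and a line at the mean of 3. All 12 WT libraries of HOXB2 lie at 0.147 to 0.449 CPM and all 12 ID3-KO libraries at 5.32 to 24.3 CPM, with the 3 treated U2OS ID3-KO libraries lowest among these.

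At the adjusted p alone 15 HOX genes differed between untreated genotypes in AID-DIvA cells and 7 in U2OS cells, where 36.7% (18.6% higher and 18.1% lower) and 15.2% (6.56% and 8.63%) of all genes did. In both lines HOXB2, HOXC8, HOXD10 and HOXD11 were higher and HOXB7, HOXB8 and HOXB9 lower in ID3-KO cells. Apart from HOXB2 these differences were under a fold of 2. HOXD11 was at 6.57 ± 0.238 against 4.09 ± 0.368 CPM in AID-DIvA and at 6.73 ± 0.152 against 4.81 ± 0.207 CPM in U2OS (adjusted p = 2e-05 and 0.0117). HOXD13, a low gene with 5 to 21 counts per untreated U2OS library, was called lower in ID3-KO U2OS cells on the counts of the sense strand, with all 4 U2OS groups in 1 fit, and without the WT library that stood apart.

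Few HOX genes passed the test of a difference in response between the genotypes. In AID-DIvA cells the genotype by treatment interaction passed for 0 of 34 HOX genes by edgeR and by DESeq2, where 1.21% of all genes passed by edgeR (0.762% higher and 0.451% lower), and 6 were under an unadjusted p of 0.05. In U2OS cells it passed for 2 of 34, where 2.15% of all genes passed (1.1% higher and 1.06% lower). HOXB2 was the first: the treated ID3-KO libraries had 5.66, 5.32 and 5.7 CPM against 22.6, 21.9 and 23.5 untreated, while treated WT libraries had 0.244, 0.278 and 0.25 CPM, and the difference of log2 fold changes was -1.52 ± 0.22 (adjusted p = 0.00167). In recovered ID3-KO AID-DIvA cells, by contrast, HOXB2 was at 24.3, 20.7 and 19.3 CPM. WT U2OS libraries held few HOXB2 counts, 16 to 29 untreated and 14 to 19 treated, so the WT side of the interaction rests on low counts. HOXA13, whose values are given above, was the second, at -0.76 ± 0.15 (adjusted p = 0.0196), and this call was lost when any of 6 single libraries was left out (largest adjusted p = 0.0703). Without untreated WT replicate 1, the library that stood apart, HOXA11, HOXB9, HOXC9 and HOXD11 passed as well, giving 6.

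The noncoding genes of the clusters moved in both directions in treated U2OS cells. Of 23 listed, 17 were tested in ID3-KO cells, with 2 called higher and 8 lower, and 16 in WT cells, with 2 higher and 6 lower. That is 11.8% higher and 47.1% lower in ID3-KO, beside 14.6% and 5.77% of all genes, and 12.5% and 37.5% in WT, beside 13.6% and 5.06%. HOXD-AS1 and HOTTIP, which lies next to HOXA13, were the higher ones in both genotypes, and HOTAIR, HOXC-AS1, HOXC-AS2, HOXC-AS3, HOXB-AS4 and HOXD-AS2 were lower in both. Some of these calls rest mostly or in part on reads of the opposite strand. Over the 12 U2OS libraries the gene's own strand held 0.878% of the stranded counts of HOXB-AS4, 20% for HOXC-AS2 and 51.3% for HOXC-AS1. The share was 78.8% for HOXD-AS2 and 95.3% to 99.5% for HOTAIR, HOTTIP and HOXD-AS1. It was 36% for HOXC-AS3, whose tested count of 1614 was near the 1673 of its own strand and below its 2970 opposite-strand reads. On its own strand HOXC-AS3 fell from 3.93, 3.1 and 3.75 to 1.57, 1.29 and 1.2 CPM in WT. HOTAIR had 17.0, 18.2 and 20.9 CPM in untreated and 5.79, 5.5 and 5.91 CPM in treated WT cells, and 24.8, 23.6 and 23.6 against 4.96, 5.79 and 5.82 CPM in ID3-KO. Its log2 fold changes of -1.69 ± 0.10 and -2.11 ± 0.07 stand beside -2.03 and -2.11 for HOXC11, which it overlaps, and its own strand carried most of its counts, with means of 17.8 and 5.39 CPM in WT. HOXB-AS3, called lower in ID3-KO, had at most 0.276 CPM on its own strand in any group mean, so its counts came from the opposite strand, where HOXB5 and HOXB6 lie. In recovered AID-DIvA cells 1 of 17 noncoding genes tested passed in ID3-KO, HOTTIP as lower, and 0 of 15 in WT. These shares, 5.88% and 0%, stand beside 7.46% and 7.38% of all genes.

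Protein-coding genes within 500 kb of the clusters were called at shares near those of all genes. Of 37 tested in ID3-KO U2OS cells 7 were called higher and 2 lower, and of 38 in WT cells 6 higher and 1 lower, with medians of -0.02 and 0.09. These shares were 18.9% and 5.41% in ID3-KO, beside 14.6% and 5.77% of all genes, and 15.8% and 2.63% in WT, beside 13.6% and 5.06%. CBX5, which encodes the heterochromatin protein HP1 alpha and lies beside the HOXC cluster, fell from 218 ± 40.8 to 86.7 ± 3.74 CPM in WT and from 212 ± 1.22 to 79.8 ± 4.22 CPM in ID3-KO (SD, n = 3). PHOSPHO1, a phosphatase of bone mineralization beside the HOXB cluster, rose from 1.81 ± 0.441 to 17.3 ± 0.826 and from 1.92 ± 0.183 to 21.2 ± 2.97 CPM.

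Among 11 genes for TALE cofactors of HOX proteins, PBX2 was called lower and PKNOX2 higher in treated U2OS cells of both genotypes, 18.2% of those tested beside 20.3% and 18.6% of all genes in ID3-KO and WT. PBX2 was at 115 ± 5.53 and 53.2 ± 0.628 CPM in WT and at 107 ± 1.94 and 45.6 ± 1.06 CPM in ID3-KO. MEIS1 was the single cofactor that passed the genotype by treatment interaction, in both lines, of 10 tested in AID-DIvA and 11 in U2OS cells. These shares are 10% and 9.09%, beside 1.21% and 2.15% of all genes. MEIS1 had 15.8, 15.8 and 15.9 against 8.34, 8.49 and 8.9 CPM in WT and 30.4, 30.9 and 30.0 against 8.52, 11.1 and 10.8 CPM in ID3-KO AID-DIvA cells. In U2OS it had 11.7, 15.0 and 15.0 against 13.5, 12.5 and 13 CPM in WT and 24.5, 27.1 and 27.0 against 14.9, 14.3 and 15.2 CPM in ID3-KO. The untreated level was higher in ID3-KO and the treated levels lay closer together, with interactions of -0.69 ± 0.13 (adjusted p = 0.011) and -0.73 ± 0.12 (adjusted p = 0.00638).

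Of 19 genes of retinoic acid signalling and the CDX family, RARB, a retinoic acid receptor that retinoic acid itself induces, was called higher in treated U2OS cells of both genotypes, from 0.933 ± 0.0596 to 4.68 ± 0.327 CPM in WT and from 0.991 ± 0.0759 to 5.32 ± 0.354 CPM in ID3-KO. In all 5 of 13 tested were called in ID3-KO, 4 higher and 1 lower (38.5%, beside 20.3% of all genes), and 1 of 12 in WT, as higher (8.33%, beside 18.6%). STRA6, a retinol transporter, was higher in untreated ID3-KO than in WT cells, at 26.4 ± 1.92 against 4.92 ± 0.834 CPM in AID-DIvA and 24.5 ± 0.163 against 8.35 ± 0.42 CPM in U2OS. Of 64 genes of other homeobox families 43 were tested in ID3-KO U2OS cells, with 12 called higher and 4 lower (27.9% and 9.3%, beside 14.6% and 5.77% of all genes), and 45 in WT, with 12 higher and 7 lower (26.7% and 15.6%, beside 13.6% and 5.06%). Their median log2 fold changes were 0.45 and 0.28. MSX2, a craniofacial and bone gene, rose from 3.3 ± 0.505 to 19.4 ± 1.35 CPM in WT and from 3.67 ± 0.042 to 16.4 ± 1.16 CPM in ID3-KO.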

How the data were processed

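RNA was sequenced from 24 libraries of 8 groups. The authors aligned read pairs to hg19/GRCh37 with STAR and counted fragments per gene with featureCounts (versions not given in the sources used here), and deposited counts per gene without normalization, for either strand and by strand. Either-strand counts entered edgeR 4.0.16 under R 4.3.3 (TMM, filterByExpr, robust quasi-likelihood fit, Benjamini-Hochberg over all genes tested). Each comparison of 2 groups used its 6 libraries, and each interaction 12. Calls needed an adjusted p below 0.05 and, outside interactions, an absolute log2 fold change above 1. A standard error is the size of the log2 fold change over the root of its F statistic. CPM per kb used the exonic length in the files.

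The AID-DIvA groups follow the sample titles. One of the 40 HOX genes is not reported here and is left out of all HOX counts, sums and figures, but stayed in the fits. The members and lists were chosen with earlier results of these data known. Library values were planned for the 20 called HOX genes of at least 1 CPM with the smallest adjusted p and the highest gene of each cluster per length, and for up to 4 called genes of each other list. HOXB4, HOXD12 and HOXD13, and HOXB-AS1 and HOXB-AS3, were added after their values were seen. The fits were tested on simulated counts with known changes. Totals ran from 37878751 to 76906266 counts per library. Alternatives were DESeq2 1.42.0, its size factors in edgeR, no filter, at least 10 counts in every library, sense-strand counts, all 4 groups of a line in 1 fit, no fold threshold, a replicate block and each library left out.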

Additional observations from a re-analysis of the deposited data

Results flagged for a closer look

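The response of 2 HOX genes differed between genotypes in U2OS cells by the interaction test of edgeR: the difference of log2 fold changes, ID3-KO minus WT, was -0.76 for HOXA13 and -1.52 for HOXB2. The WT side of HOXB2 rests on 14 to 29 counts per library.

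The response to mocetinostat differed between recovered AID-DIvA cells and directly treated U2OS cells for the genes below, each given as the log2 fold change in AID-DIvA minus that in U2OS cells and each past an adjusted p of 0.05 by edgeR's interaction test. In ID3-KO cells the HOXA genes gave 1.40 for HOXA3, -0.56 for HOXA5, 0.47 for HOXA7, 0.52 for HOXA10, 0.71 for HOXA11 and -1.28 for HOXA13. The HOXB genes gave 2.28 for HOXB2, 0.85 for HOXB3, 0.96 for HOXB4, 0.98 for HOXB5, 1.11 for HOXB6, 0.66 for HOXB7, 0.60 for HOXB8, 1.27 for HOXB9 and -0.71 for HOXB13. All 9 tested HOXB genes therefore differed, 8 of them in the positive direction. The HOXC genes gave 1.71 for HOXC6, 0.88 for HOXC8, 0.76 for HOXC9, -0.54 for HOXC10, 1.35 for HOXC11 and -0.81 for HOXC13. The HOXD genes gave -3.11 for HOXD1, -0.83 for HOXD8, 1.90 for HOXD10 and 1.77 for HOXD11.

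In WT cells the HOXA genes gave 1.34 for HOXA3, -0.56 for HOXA5, 0.65 for HOXA10 and -1.77 for HOXA13. The HOXB genes gave 0.52 for HOXB3, 0.68 for HOXB6, 1.20 for HOXB7, 0.89 for HOXB8, 1.29 for HOXB9 and -0.59 for HOXB13. The HOXC genes gave 1.72 for HOXC6, 0.86 for HOXC8, 0.68 for HOXC9, -0.36 for HOXC10, 1.30 for HOXC11 and -0.80 for HOXC13. The HOXD genes gave -2.84 for HOXD1, -0.76 for HOXD8, 1.70 for HOXD10, 1.45 for HOXD11 and 1.96 for HOXD12. In both genotypes 13 genes were positive and 7 negative, and stage, cell line and any batch cannot be told apart.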

How the results depend on the processing

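Without the fold threshold the counts of HOX genes called were 20 and 16 after recovery (ID3-KO and WT), 25 and 23 in treated U2OS cells, and 15 and 7 between untreated genotypes in AID-DIvA and U2OS cells. With at least 10 counts in every library HOXB2 was not tested between untreated AID-DIvA genotypes, since its WT libraries held 9 to 11 counts, and 0 genes were called. In untreated U2OS cells sense-strand counts and the fit of all 4 groups each gave 2 calls, HOXB2 and HOXD13, and DESeq2 gave 4 calls for the U2OS genotype interaction, adding HOXA11 and HOXB9. Leaving out 1 library gave 2 to 4 calls (ID3-KO) and 1 to 2 (WT) after recovery, 13 in every case (ID3-KO) and 11 to 14 (WT) in treated U2OS cells, 1 in every case (AID-DIvA) and 1 to 2 (U2OS) between untreated genotypes, 0 in every case (AID-DIvA) and 1 to 6 (U2OS) for the genotype interaction, and 24 to 27 (ID3-KO) and 20 to 23 (WT) between recovered and directly treated cells. HOXC4 was lost after recovery in WT without untreated replicate 1, and HOXB4 in ID3-KO without untreated replicate 1. The labels number the replicates and do not say whether same-numbered libraries are paired. The deviations of same-numbered libraries correlated at -0.426 to 0.306, which cannot decide it with 3 libraries per group. With the replicate block the counts were 3 and 2 after recovery, 13 and 12 in treated U2OS cells, 1 and 1 between untreated genotypes, 0 and 2 for the genotype interactions, and 25 and 22 between recovered and directly treated cells. Under DESeq2 the median log2 fold change of all genes was 0.101 (ID3-KO) and 0.113 (WT) in treated U2OS cells and the calls were 13 and 12. Over the HOX genes called in the main fit and the alternatives that tested them, 1252 values still passed, 20 no longer passed and none changed sign. Genes that only an alternative called are not in these counts, and neither is the setting without a fold threshold. The cause was not tested. Genes under 1 CPM rest on few counts, and overlapping exons limit how far neighbouring HOX genes can be told apart.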
